A study of Mus musculus with 3 samples.

Results

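Claudins are the membrane proteins that set the tightness of an epithelium, and 8 genes of the tight junction were followed here in the mouse lacrimal gland (LG): the claudins *Cldn3*, *Cldn4*, *Cldn5*, *Cldn7* and *Cldn10*, together with *Ocln*, *F11r* and *Tjp1*. They were chosen by name, and all 8 were found among the 32285 genes of the 3 count matrices. Single-cell RNA sequencing had been run on C57BL/6J mice aged 2 months, with no treatment, in 1 female library (Female, replicate 1) and 2 male libraries (Male, replicates 1 and 2). Each library pooled the 6 LGs of 3 animals, so the animals within a library cannot be told apart. The female library came from a different sequencing core and preparation day than the male ones. Sex is therefore mixed with core and day, these cannot be told apart, and no test between the sexes was made. The question taken up was which epithelial classes and endothelial subsets of the gland use which tight junction genes.

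A tight junction seals the space between neighbouring cells near their luminal face. Claudins span the membrane and join across the gap. *Cldn3*, *Cldn4*, *Cldn5* and *Cldn7* are known mostly as sealing claudins, whereas *Cldn10* forms paracellular ion channels in secretory and renal epithelia. Occludin (*Ocln*) is a further membrane component, JAM-A (*F11r*) is an immunoglobulin-type adhesion molecule, and ZO-1 (*Tjp1*) is the cytoplasmic scaffold that ties claudins to actin. In glands, acini secrete the primary fluid and ducts modify it, and in vessels *Cldn5* is the claudin of the endothelial barrier.

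All positions are given on GRCm38 (mm10), with gene spans from GENCODE M21. *Cldn3* lies on the plus strand at chr5:134986214-134987472 and *Cldn4* on the minus strand at chr5:134945119-134946934. They are neighbours that point away from each other, with 39280 bases between their starts and 0 annotated genes in between. *Cldn5* lies at chr16:18776847-18778262, *Cldn7* at chr11:69964779-69967885 and *Cldn10* at chr14:118787908-118875489. *Ocln* lies at chr13:100496507-100552718, *Tjp1* at chr7:65296165-65527781 and *F11r* at chr1:171437535-171464603. A gene annotated on the opposite strand, *Wbscr25*, overlaps *Cldn3*, and whether counting used strand is not given in the sources used here. *Cldn10* has a pair of annotated start windows, at chr14:118787621-118787870 and chr14:118854700-118854949, and counts taken at the 3′ end cannot separate transcripts by their first exon.

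The windows of 250 bases before the starts of the neighbours *Cldn3* and *Cldn4*, which had opposite patterns in the 2 duct types and in acinar cells, and of the endothelial *Cldn5* are shown from RefSeq (GRCm38.p6), 5′ to 3′ on the strand of the gene. Capitals mark every match, on either strand, to 3 motifs. These are the E-box CACCTG, the AP-1 type motif TGANTCA, which reads alike on both strands, and the GC box GGGCGG, and no matches overlapped.
Cldn3 (chr5:134985964-134986213, plus strand): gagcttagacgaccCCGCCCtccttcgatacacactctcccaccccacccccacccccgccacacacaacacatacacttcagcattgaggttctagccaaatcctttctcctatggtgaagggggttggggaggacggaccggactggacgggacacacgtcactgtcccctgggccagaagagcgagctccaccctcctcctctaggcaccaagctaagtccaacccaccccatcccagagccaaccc
Cldn4 (chr5:134946935-134947184, minus strand): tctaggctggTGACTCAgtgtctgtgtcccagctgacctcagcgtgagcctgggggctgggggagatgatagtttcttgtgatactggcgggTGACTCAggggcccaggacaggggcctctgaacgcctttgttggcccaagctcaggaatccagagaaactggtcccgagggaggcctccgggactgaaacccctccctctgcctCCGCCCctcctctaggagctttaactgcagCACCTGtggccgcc
Cldn5 (chr16:18776597-18776846, plus strand): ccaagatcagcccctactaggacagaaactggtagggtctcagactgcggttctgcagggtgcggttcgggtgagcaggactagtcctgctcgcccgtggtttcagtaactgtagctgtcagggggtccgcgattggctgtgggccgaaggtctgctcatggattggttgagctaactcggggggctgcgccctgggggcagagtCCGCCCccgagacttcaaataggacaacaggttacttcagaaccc

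The *Cldn4* window held 2 AP-1 type matches, starting 240 and 158 bases before the start, 1 E-box starting 14 bases before it and 1 GC box. *Cldn3* and *Cldn5* held 1 GC box each and 0 of the other motifs. Among all 32851 windows in the table, 17.2% held the E-box, 6.75% the AP-1 type motif and 32.7% the GC box. A match is a description of letters and not of a bound site.

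Cells with more than 500 unique molecular identifiers (UMIs), more than 200 genes and under 15% mitochondrial counts were kept after removal of doublets, giving 7652, 5295 and 5397 cells in the female library and male libraries 1 and 2. Called barcodes held 63066640, 40609390 and 44661762 UMIs, and the median per kept cell was 3254, 1885 and 1789 UMIs. Free RNA was abundant: 90.3% to 91.8% of the UMIs on uncalled barcodes with more than 500 UMIs came from tear-product genes. In the 3 libraries, 21.8%, 57.0% and 50.1% of kept cells had fewer UMIs than the 95th percentile of those uncalled barcodes. Pairs of libraries shared 8 to 13 cell barcodes. Levels are given as CPM, the usual scaling of a gene's UMIs to the total, with tear-product and mitochondrial genes left out of that total, summed over the cells of a class in a library, as mean ± SD over n = 3 libraries unless stated, and a count at the 3′ end is not scaled by gene length.

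Clustering left the 8 members and the other listed junction genes out of the features, though it used genes whose levels go with theirs. It gave 3156 acinar, 368 Car6hi acinar, 794 Tfrchi acinar, 742 luminal-type duct, 825 basal-type duct, 1069 Ltf+ and 947 myoepithelial (MEC) cells, and 1777 endothelial cells with 820 capillary, 412 venous and 135 arteriolar cells. The names came from marker lists, and the same markers were then compared in the same cells, which is no independent check of the names. By that count 4 of 6 basal-type duct, 6 of 7 acinar and 7 of 9 MEC markers were highest in their own class, as were all markers of the other named epithelial classes and endothelial subsets. Of the basal-type markers, *Krt5* (1348 CPM against 1528 in the highest other epithelial class) and *Kitl* (148.9 against 1363) were not. Another 793 cells, most of them led by immunoglobulin genes, and 410 endothelial cells could not be named.

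*Cldn4*, a sealing claudin, was highest in the duct. Its level in basal-type duct cells was 275.5 CPM in the female library, 207.0 CPM in male library 1 and 224.0 CPM in male library 2. Luminal-type duct cells held 122.7, 49.9 and 110.8 CPM in the same order, and Ltf+ cells, which carry *Ltf* and *Sftpd*, held 52.3, 29.4 and 15.6 CPM. Every basal-type value lay above every luminal-type value. Luminal-type and Ltf+ values overlapped across libraries, but within each library the luminal-type value was higher. That step passed the test (log2 1.43 ± 0.34, edgeR, adjusted p = 0.00321). The other classes held few UMIs: 3 in 3156 acinar cells, 1 in 368 Car6hi acinar cells, 3 in 794 Tfrchi acinar cells and 1 in 947 MEC. In Tfrchi acinar cells, which have few UMIs outside tear-product genes, these gave 17.3, 0 and 0 CPM. The female value there lay above the Ltf+ value of male library 2.

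In duct cells (the mean of both duct types) against the mean of the other 5 epithelial classes, *Cldn4* was higher by a log2 fold change of 5.42 ± 0.29 (SE, edgeR quasi-likelihood test with Benjamini-Hochberg adjustment, adjusted p = 5.37e-13). This call held in all 17 other settings, with values from 5.16 to 6.95. *Cldn4* passed the filter on low counts mainly through the duct types. These held 430 UMIs in basal-type and 163 in luminal-type cells, against 62 in Ltf+ cells. The p-value and the settings therefore add little to the levels above. Pooled over libraries, the *Cldn4* level of basal-type duct cells was 636-fold that of acinar cells (95% interval 216 to 3097, exact, counting error only) and 342-fold that of MEC (61.0 to 13530). It was 110-fold that of Car6hi acinar cells (19.6 to 4342) and 29.4-fold that of Tfrchi acinar cells (9.99 to 143). After thinning each cell to 1000 UMIs, 10.98% ± 3.71 of basal-type and 4.90% ± 3.51 of luminal-type duct cells had a *Cldn4* UMI, against 0.022% ± 0.038 of myeloid cells. Without thinning the shares were 43.5%, 13.3% and 12.2% of basal-type and 23.7%, 3.31% and 5.08% of luminal-type cells in the female library and male libraries 1 and 2, so that the female library stood apart, and 0.0218% ± 0.0378 of myeloid cells, with median depths of 1377 to 3958, 1236 to 3545 and 1428 to 3566 UMIs over the libraries.

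Between the duct types, *Cldn4* was lower in luminal-type than in basal-type cells by a log2 change of -1.42 ± 0.31 (edgeR, adjusted p = 0.00981). It was 1 of 6 members tested that was called there, where 1.52% of 6311 genes were called, 1.44% lower and 0.0792% higher in luminal-type cells. The call was lost without the female library (adjusted p = 0.0804, edgeR), without male library 1 (0.15), without a library term (0.152) and at the other clustering resolutions (0.111 and 0.105), with the same sign throughout. The immediate early and stress genes moved with it: 9 of 12 listed were also lower in luminal-type cells, among them *Atf3* by -3.32 ± 0.52 and *Egr1*, an immediate early transcription factor, by -2.39 ± 0.27. *Fos* was at 9554 CPM in basal-type and 2370 CPM in luminal-type cells. The part of this difference in that of *Cldn4* was not tested. Among the basal-type markers, *Krt5* and *Kitl* were higher in another epithelial class. The type names therefore do not settle which layer of the duct the cells came from.

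*Cldn3*, also a sealing claudin, was highest in the acinar classes and Ltf+ cells, and ran opposite to its neighbour in the luminal-type and basal-type duct. It did not in Ltf+ cells, which the study describes as mostly luminal cells of small ducts and which are kept apart from the duct types here: both genes were called higher in them. Car6hi acinar cells held 373.2, 728.9 and 807.9 CPM in the female library and male libraries 1 and 2, Ltf+ cells 365.9, 733.4 and 620.7 CPM, and acinar cells 439.0, 398.1 and 381.5 CPM. Tfrchi acinar cells held 213.0, 454.5 and 441.3 CPM. Duct types and MEC lay between 17.3 and 87.3 CPM in every library, below every value of those 4 classes. In the order of mean levels, the steps between Car6hi acinar, Ltf+, acinar and Tfrchi acinar cells did not pass the test. The step from Tfrchi acinar to luminal-type duct cells did (log2 2.05 ± 0.36, edgeR, adjusted p = 7.79e-05). Among classes that are not neighbours in this order, Car6hi acinar minus Tfrchi acinar cells was 0.82 ± 0.31 (edgeR, adjusted p = 0.0477). Tfrchi acinar minus Ltf+ cells was -0.75 ± 0.29 (edgeR, adjusted p = 0.0445).

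**Figure D1:**
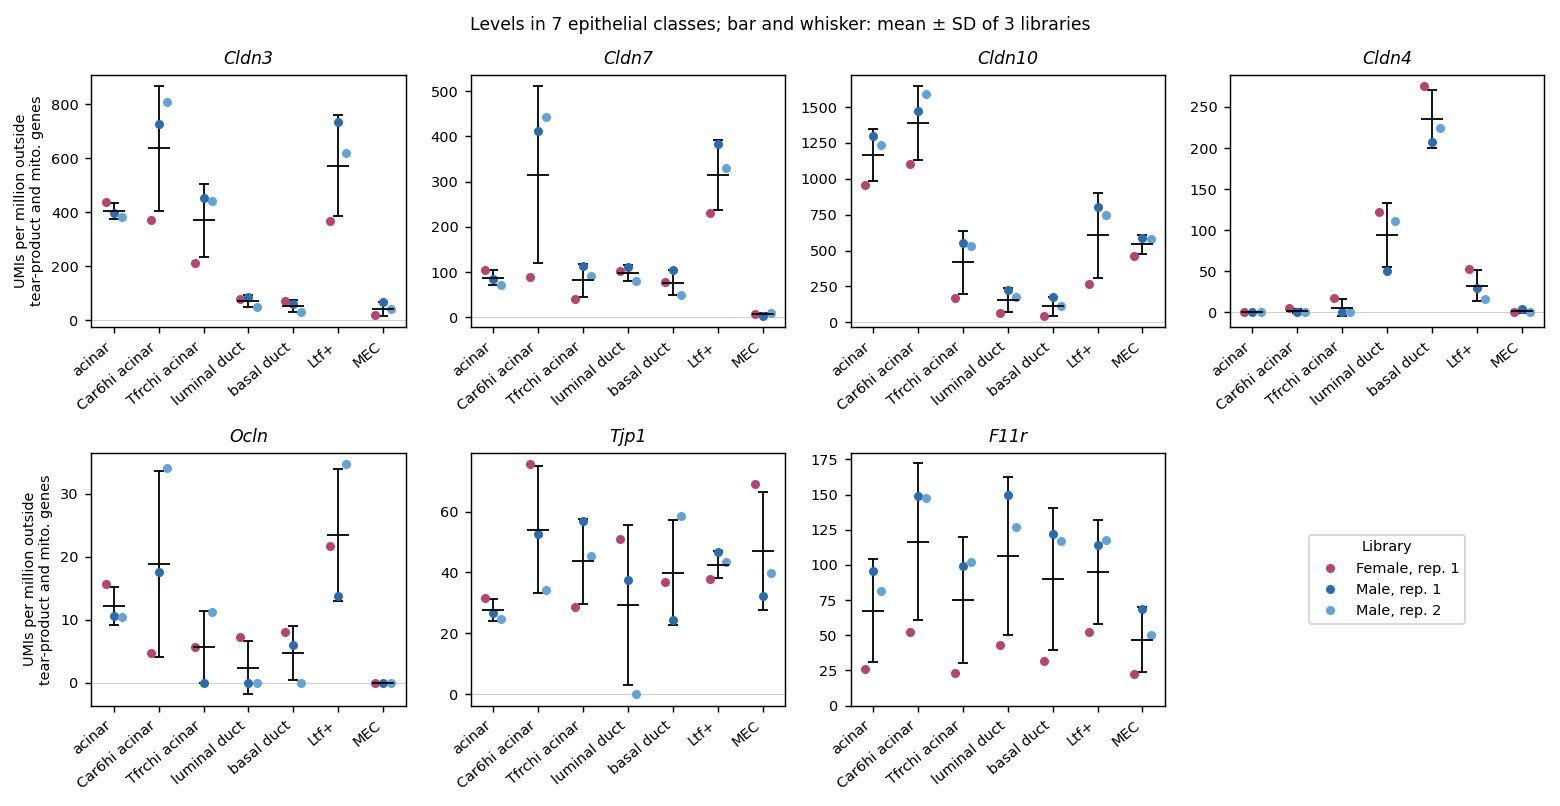
Levels of 7 members in the 7 epithelial classes, as CPM outside tear-product and mitochondrial genes, with 1 point a library and a bar with whiskers for the mean ± SD of 3 libraries. *Cldn4* stood at 235.5 CPM in basal-type duct cells and near 0 in acinar cells and MEC, whereas *Cldn3* and *Cldn10* were highest in Car6hi acinar cells on this scale (over all UMIs, in Ltf+ cells and in MEC).

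*Cldn3* was higher in Ltf+ cells (log2 1.52 ± 0.19, edgeR, adjusted p = 1.75e-06), in Car6hi acinar cells (1.61 ± 0.22, adjusted p = 8.29e-06) and in acinar cells (1.45 ± 0.19, adjusted p = 4.57e-07), and lower in duct cells (-1.98 ± 0.22, adjusted p = 6.64e-08) and MEC (-3.23 ± 0.31, adjusted p = 3.95e-09). The direction in acinar cells flipped when counts were scaled by total UMIs (-0.83, edgeR, adjusted p = 0.00572). Tear-product genes made up 89.8% to 90.7% of the UMIs of acinar cells. The higher call in Tfrchi acinar cells (0.63 ± 0.25, adjusted p = 0.0484) was lost in 9 of 17 other settings, among them the fits without male library 1 (0.60, adjusted p = 0.147) and without male library 2 (0.42, adjusted p = 0.358).

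*Cldn7*, which seals lateral membranes, was also highest in Car6hi acinar and Ltf+ cells, with duct cells at the level of acinar cells. Ltf+ cells held 230.9, 384.0 and 331.2 CPM, and Car6hi acinar cells 89.8, 412.7 and 443.8 CPM, so that the female Car6hi value, from 19 UMIs, stood apart from the male ones. Luminal-type duct cells at 98.2 ± 17.1 CPM, acinar cells at 87.4 ± 16.4, Tfrchi acinar cells at 81.5 ± 37.5 and basal-type duct cells at 76.8 ± 27.4 CPM followed, and the 3 steps between these did not pass the test. The step down to them from Ltf+ cells did (log2 1.57 ± 0.34, edgeR, adjusted p = 0.0014), as did the step from basal-type duct cells to MEC (3.68 ± 0.56, adjusted p = 2.22e-05). MEC held only 8 UMIs in 947 cells, 6.59 ± 3.22 CPM. The log2 change was 2.21 ± 0.23 in Ltf+ cells (edgeR, adjusted p = 5.81e-08), 1.96 ± 0.29 in Car6hi acinar cells (adjusted p = 3.62e-05) and -4.44 ± 0.47 in MEC (adjusted p = 1.95e-08), and these 3 calls held in all 17 other settings. In duct cells it was 0.15 ± 0.24, which did not pass the test. The setting with free RNA subtracted left Ltf+ and acinar-class sums as they were. It could therefore not test the Ltf+ and Car6hi acinar calls for free RNA.

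*Cldn10*, the channel-forming member, was counted most often, with 11033 UMIs in 7901 epithelial cells. Car6hi acinar cells held 1101, 1475 and 1593 CPM and acinar cells 960, 1300 and 1233 CPM in the female library and male libraries 1 and 2. Ltf+ cells followed at 267.2, 804.3 and 749.0 CPM and MEC at 465.3, 586.5 and 579.3 CPM. The female value was the lowest of the 3 in 9 of the 9 classes compared (the 7 epithelial classes, capillary and venous cells), and in the free RNA as well, at 702.2 against 1320 and 1270 CPM. *Cldn10* was higher in acinar cells (log2 1.80 ± 0.18, edgeR, adjusted p = 7.18e-09), which flipped to -0.46 with scaling by total UMIs, and in Car6hi acinar cells (1.61 ± 0.19, adjusted p = 1.75e-06). It was lower in duct cells (-2.79 ± 0.21, edgeR, adjusted p = 1.39e-10) and in Tfrchi acinar cells (-0.72 ± 0.25, adjusted p = 0.0234). The latter call was lost in 6 of 17 other settings, including subtraction of free RNA (edgeR, adjusted p = 0.291). That setting subtracted from duct cells and MEC, and not from Tfrchi acinar sums.

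Counts per cell set these levels against free RNA. An uncalled barcode held on average 0.0835, 0.126 and 0.099 *Cldn10* UMIs in the female library and male libraries 1 and 2. Lymphoid cells held 0.107 ± 0.014 and myeloid cells 0.101 ± 0.022 UMIs per cell, close to that background, and luminal-type and basal-type duct cells held 0.132 ± 0.033 and 0.118 ± 0.033. Acinar cells held 3.01 ± 1.11 UMIs per cell, 29.2 times the uncalled barcodes, and MEC, contractile cells around the acini, held 0.671 ± 0.365, 6.52 times. MEC stood above the background in each library, with 1.09, 0.502 and 0.420 UMIs per cell, whereas duct cells stood near it. For *Cldn3*, luminal-type duct cells held 0.193, 0.0579 and 0.0254 and basal-type duct cells 0.198, 0.0493 and 0.0203 UMIs per cell in the female library and male libraries 1 and 2, against 0.0339, 0.0293 and 0.0209 per uncalled barcode. The female duct cells stood well above that background, and those of male library 2 were near it.

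**Figure D2:**
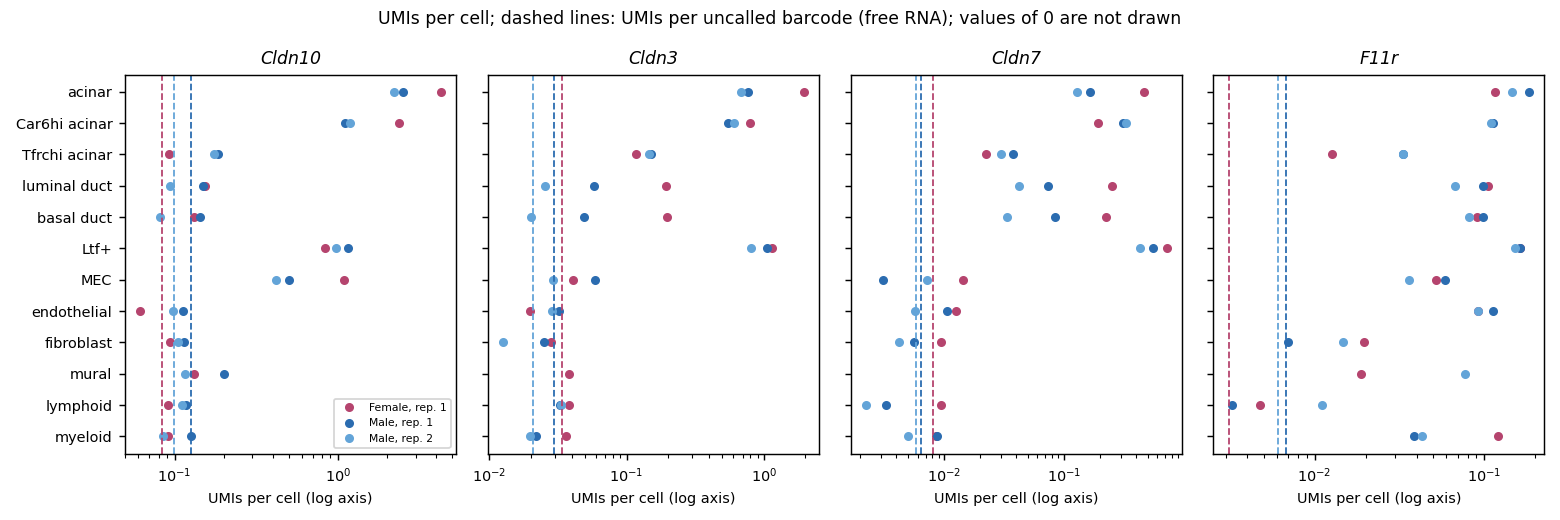
UMIs per cell of *Cldn10*, *Cldn3*, *Cldn7* and *F11r* on a log axis in 12 classes, with 1 point a library, and dashed lines for UMIs per uncalled barcode in the library of the same colour. Duct, stromal and immune cells sat near the dashed lines for *Cldn10*, and MEC lay to their right at 0.420 to 1.09 UMIs per cell.

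Within the acinar class, a pair of clusters differed in depth. In the cluster led by *Prom2* (1668 cells, median 13000, 5265 and 5967 UMIs) *Cldn10* was at 681 ± 117 CPM and *Cldn3* at 572 ± 43 CPM. In the deeper cluster led by *Gm12888* (1488 cells, median 53630, 41250 and 36730 UMIs) *Cldn10* was at 1336 ± 240 CPM and *Cldn3* at 346 ± 56 CPM. These values are a description, with no test.

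*Ocln* was low throughout: 159 UMIs in 7901 epithelial cells. Ltf+ cells held 21.8, 13.8 and 34.7 CPM, acinar cells 15.7, 10.6 and 10.4 CPM, and Car6hi acinar cells 4.72, 17.6 and 34.1 CPM, and the classes overlapped. No *Ocln* UMI was seen in 947 MEC, which allows a share of up to 0.317% of cells with a UMI, or in 1777 endothelial cells, which allows up to 0.169%, for counting error only. *Ocln* did not pass the filter on low counts in any of the 3 fits, so its levels were not tested there.

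*F11r* and *Tjp1* were counted in both epithelium and endothelium, and not only there. Fibroblasts held *Tjp1* at 40.3 ± 8.4 CPM against 34.7 ± 7.0 CPM in epithelial cells, and myeloid cells held *F11r* at 48.8 ± 6.1 CPM. *Tjp1* lay between 27.6 ± 3.7 CPM (acinar) and 54.1 ± 20.8 CPM (Car6hi acinar) over the epithelial classes, and 0 of 6 neighbouring pairs in that order differed. *F11r* lay between 46.8 ± 23.2 CPM in MEC and 116 ± 56 CPM in Car6hi acinar cells, and only its lowest step, acinar to MEC, differed (log2 0.84 ± 0.21, edgeR, adjusted p = 0.0015). MEC were lower in *F11r* than the other classes (-0.91 ± 0.20, adjusted p = 0.00045), a call that was lost without male library 2 (adjusted p = 0.0625) and without a library term (0.16), and whose sign turned with scaling by total UMIs (0.52).

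**Figure D3:**
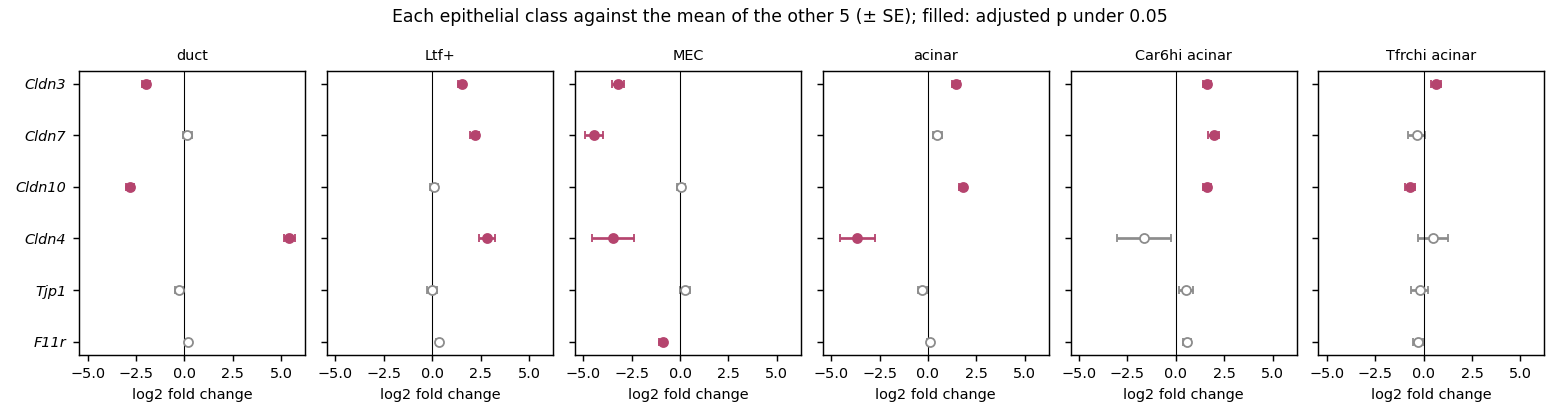
Log2 fold change (± SE) of 6 members in each epithelial class against the mean of the other 5, with filled points for an adjusted p under 0.05. *Cldn4* reached 5.42 in duct cells and *Cldn7* -4.44 in MEC, whereas *Tjp1* had 0 calls in the 6 comparisons.

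Counted over members, 6 of the 8 passed the filter in the epithelial fit (*Cldn5* and *Ocln* did not). In duct cells 1 was called higher and 2 lower, where 24.4% of 6311 genes were called higher and 23.6% lower, so that the count is near that of all genes. The higher one was *Cldn4*, which passed the filter mainly through these same cells. Either way, 48.1% of genes were called in duct cells. Ltf+ cells had 3 higher (*Cldn3*, *Cldn4*, *Cldn7*) and 0 lower against 15.4% and 4.14% of genes (19.6% either way). *Cldn4* was higher there by 2.85 ± 0.41 (edgeR, adjusted p = 1.11e-05). Car6hi acinar cells had 3 higher (*Cldn3*, *Cldn7*, *Cldn10*) and 0 lower against 8% and 4.15% (12.2% either way). MEC had 0 higher and 4 lower against 25.4% and 23.8% (49.2% either way). Acinar cells had 2 higher and 1 lower against 36.1% and 19.9% (56.1% either way), and Tfrchi acinar cells 1 higher and 1 lower against 20.6% and 18.2% (38.9% either way). Of the 12 stress genes, 12 were higher in duct cells, 8 in MEC and 5 in Tfrchi acinar cells, and 11 were lower in acinar, 5 in Car6hi acinar and 3 in Ltf+ cells. Their part in these calls was not tested. The lower call of *Cldn4* in acinar cells and MEC rested on 3 UMIs and 1 UMI, and was lost without the female library (edgeR, adjusted p = 1 and 0.81), and in acinar cells without male library 1 as well (1). Each of these calls was lost in 5 of 17 other settings, and the MEC value without the female library was -0.03.

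The other listed junction genes set the members in context: of 65 genes in 6 lists, 36 were tested in the epithelial fit. The lists held other claudins, tricellular and MARVEL proteins, the JAM family with CAR, scaffold and polarity proteins, adherens junctions and desmosomes. In duct cells 17 were higher and 6 lower, with a median log2 change of 0.46 against -0.01 over all genes. The shares over all genes were 24.4% higher and 23.6% lower there. *Cldn1*, the claudin of stratified epithelia, was higher by 4.06 ± 0.55, the desmosomal plakophilin *Pkp1* by 3.81 ± 0.63 and P-cadherin (*Cdh3*) by 2.90 ± 0.37. *Crb3*, an apical polarity protein, was lower by -1.27 ± 0.25. Of the 7 desmosome genes 5 were higher and 0 lower in duct cells.

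MEC had 16 of the 36 higher and 12 lower, with a median of 0.33 against -0.00461 over all genes. The shares over all genes were 25.4% higher and 23.8% lower. N-cadherin (*Cdh2*) was higher by 7.73 ± 0.46, the adhesion molecule *Jam2* by 5.11 ± 0.77 and the scaffold *Mpdz* by 4.37 ± 0.40. The tight junction plaque gene *Cgn* was lower by -5.55 ± 0.66, the tricellular gene *Ildr1* by -2.66 ± 0.33 and *Marveld3* by -2.62 ± 0.31. In levels, *Cdh2* stood at 104 CPM in MEC and at most 3.8 CPM in the other classes, and *Cgn* at 0.4 CPM in MEC and 129 CPM in Tfrchi acinar cells.

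Ltf+ cells had 11 of the 36 junction genes higher and 0 lower, with a median of 0.43 against 0.08 over all genes. The shares over all genes were 15.4% higher and 4.14% lower. *Cldn1* was higher by 3.17 ± 0.62, *Pkp2* by 2.06 ± 0.33 and *Cldn8*, a further claudin, by 1.62 ± 0.25. Acinar cells had 8 higher, led by *Crb3* (1.76 ± 0.17) and *Nectin2* (1.63 ± 0.16), and 13 lower, led by *Cdh3* (-4.70 ± 0.82) and *Mpdz* (-4.26 ± 0.92), with a median of -0.34 against 0.13. Tfrchi acinar cells had 6 higher, led by *Cgn* (2.90 ± 0.37), and 6 lower, led by the tricellular receptor *Lsr* (-2.58 ± 0.64), with a median of -0.35 against -0.06. Car6hi acinar cells had 3 higher and 1 lower, with a median of -0.16 against -0.10. Over all genes 36.1% were higher and 19.9% lower in acinar cells. These shares were 20.6% and 18.2% in Tfrchi acinar cells, and 8% and 4.15% in Car6hi acinar cells. Between the duct types only *Cxadr*, a junction adhesion receptor, was called among these genes, lower in luminal-type cells (-1.02 ± 0.25, edgeR, adjusted p = 0.0307). The share over all genes was 1.52% there.

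*Cldn5* marked arteriolar cells, a pattern already known from these data and given without a test. Arteriolar cells held 1322 CPM in the female library (96 cells), 1934 CPM in male library 1 (21 cells) and 631.5 CPM in male library 2 (18 cells). Capillary cells held 48.3, 20.6 and 23.9 CPM and venous cells 8.05, 0 and 0 CPM, so that the 3 subsets did not overlap. In 7901 epithelial cells there were 3 *Cldn5* UMIs, a CPM lower than that of endothelial cells by a ratio of 567 (95% interval 192 to 2766). The thinned share of arteriolar cells with a *Cldn5* UMI was 48.1%, 50% and 50%, or 38 of 79, 6 of 12 and 2 of 4 cells deep enough in the female library and male libraries 1 and 2, with 40 left out, against 0.0463% ± 0.080 of myeloid cells, and unthinned it was 57.3%, 47.6% and 16.7% against a mean of 0.0631%, at median depths of 821.5 to 1878 and 1428 to 3566 UMIs.

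*Cldn5* passed the filter mainly through arteriolar cells, with 184 UMIs there, 48 in capillary and 3 in venous cells. Capillary cells lay above venous cells in each library (48.3, 20.6 and 23.9 against 8.05, 0 and 0 CPM). The smallest count of a library was 2 UMIs in capillary and 0 in venous cells. Given this and the way *Cldn5* passed the filter, the difference is a description with no test. Of the 4 members tested in the endothelial fit, 1 (*Cldn5*, lower) was called in venous cells against the mean of the other subsets, a contrast that includes the arteriolar level and adds nothing to it, where 28.7% of 2032 genes were called (17.7% higher and 11% lower). In capillary cells 0 were called, where 13.4% of genes were (8.12% higher and 5.31% lower). *Cldn10*, *F11r* and *Tjp1* had no call in any subset with edgeR. In capillary cells 1 of the 4, *Cldn5*, was under 0.05 before adjustment (adjusted p = 0.221, edgeR), and arteriolar cells had 0 calls among the other 3 where 19.2% of genes were called (7.04% higher and 12.2% lower). The *Tjp1* level was 206 ± 48 CPM in capillary, 245 ± 51 CPM in venous and 138 ± 159 CPM in arteriolar cells, the last with 0 UMIs in male library 2.

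**Figure D4:**
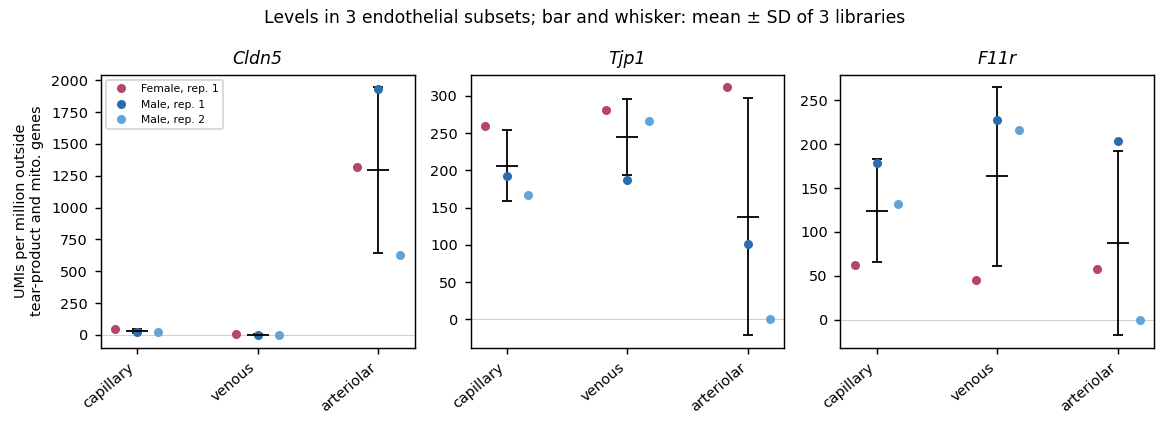
Levels of *Cldn5*, *Tjp1* and *F11r* in the 3 endothelial subsets, as CPM outside tear-product and mitochondrial genes, with 1 point a library and a bar with whiskers for the mean ± SD of 3 libraries. *Cldn5* separated arteriolar cells (631.5 to 1934 CPM) from the other subsets, whereas *Tjp1* and *F11r* overlapped across the subsets.

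A few other adhesion genes differed between the endothelial subsets. *Jam3*, a JAM-family partner, was higher in capillary cells by 3.38 ± 0.34 and lower in arteriolar cells by -3.21 ± 0.64. *Jup* (plakoglobin) was higher in capillary cells by 1.35 ± 0.31 and lower in venous cells by -1.56 ± 0.39, and *Jam2* was higher in venous cells by 0.62 ± 0.23. Of 10 junction genes tested there, these 3 were the ones called in any subset. Capillary cells had 2 higher and 0 lower, venous cells 1 higher and 1 lower, and arteriolar cells 0 higher and 1 lower. Over all genes 13.4%, 28.7% and 19.2% were called either way in these subsets, so the counts are near those of all genes. Levels of *Jam3* were 332 CPM in capillary, 63.3 CPM in venous and 8.2 CPM in arteriolar cells.

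Across the gland, *Cldn3* (log2 3.74 ± 0.19), *Cldn7* (5.15 ± 0.27), *Cldn10* (2.80 ± 0.13) and *F11r* (1.14 ± 0.29) were higher in epithelial cells than in the mean of the other 5 lineages (edgeR, adjusted p = 2.30e-14, 1.98e-13, 4.83e-15 and 0.00262), 4 of 6 members tested where 30.1% of 9529 genes were higher and 13.7% lower (43.8% either way). The *F11r* call was lost without male library 1 (adjusted p = 0.103) and with DESeq2 (0.0595), and its sign turned with scaling by total UMIs (-0.73). Endothelial cells were higher in *Cldn5* (7.76 ± 0.50), *Tjp1* (3.64 ± 0.20) and *F11r* (1.96 ± 0.31; edgeR, adjusted p = 1.11e-11, 1.43e-13 and 1.79e-05), where 20.8% of genes were higher and 10.4% lower (31.1% either way). *Cldn5* held 260 UMIs in endothelial cells, 184 of them arteriolar, and at most 5 in another lineage. It passed the filter through the endothelial cells, so its p-value adds nothing to its level there. *Tjp1* was at 275.2, 220.7 and 203.6 CPM in endothelial cells and at 42.8, 31.5 and 29.8 CPM in epithelial cells, with no overlap. The lower call of *Cldn10* in endothelial cells (-0.88 ± 0.18, adjusted p = 0.000373) stands beside 0.0907 ± 0.0263 UMIs per cell, against 0.103 ± 0.022 per uncalled barcode, and was lost with free RNA subtracted (adjusted p = 0.0668).

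Among the other junction genes, 20 of 29 tested were higher in epithelial and 18 in endothelial cells than in the mean of the other lineages. The shares over all genes were 30.1% and 20.8%. The epithelial ones were led by desmoplakin (*Dsp*, 5.19 ± 0.26), E-cadherin (*Cdh1*, 5.16 ± 0.34) and *Ildr1* (4.88 ± 0.28). The endothelial ones were led by VE-cadherin (*Cdh5*, 10.06 ± 0.26), *Esam* (7.95 ± 0.24) and *Jam2* (7.80 ± 0.33).

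*F11r* differed between the female and male libraries in the same direction in many classes. Its CPM was lower in the female library than in both male libraries in 9 of 9 classes compared, for instance 25.9 against 95.5 and 81.1 in acinar cells, 52.3 against 114 and 118 in Ltf+ cells and 53.1 against 177 and 163 in endothelial cells. Myeloid cells held 47.8, 43.3 and 55.4 CPM and did not show it, and free RNA held 26.1, 70.6 and 77.7 CPM. Arteriolar cells (57.5, 203.5 and 0 CPM) and mural cells (10.1, 0 and 142.4 CPM), on few UMIs, did not show it either. Fibroblasts (8.91, 8.97 and 21.5 CPM) and lymphoid cells (3.41, 6.79 and 26.7 CPM) did. Counted per cell, Ltf+ cells held 0.163, 0.164 and 0.153 *F11r* UMIs while their other UMIs per cell, outside tear-product and mitochondrial genes, were 3116, 1435 and 1296. With 1 female library this was not tested.

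**Figure D5:**
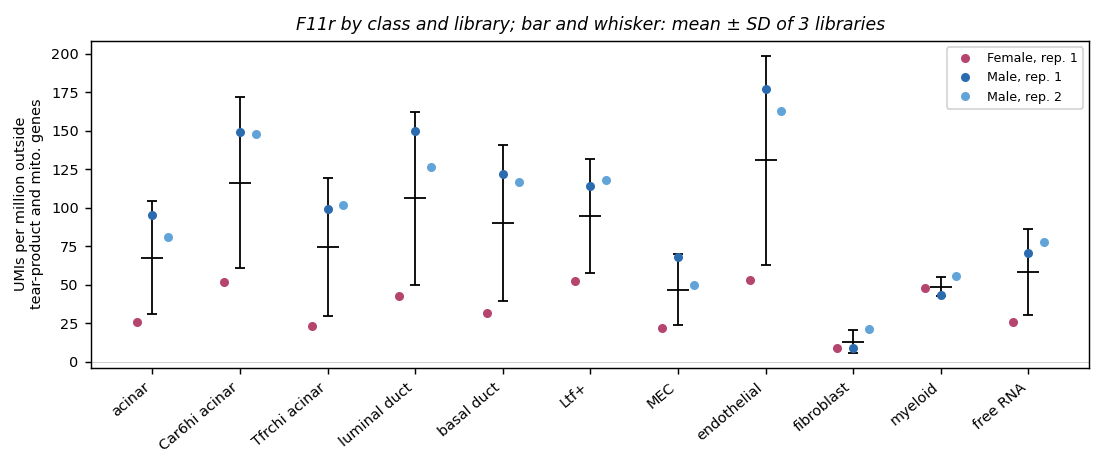
*F11r* in the 7 epithelial classes, endothelial cells, fibroblasts, myeloid cells and free RNA, as CPM outside tear-product and mitochondrial genes, with 1 point a library and a bar with whiskers for the mean ± SD of 3 libraries. The female point lay under both male points in every epithelial class, and not in myeloid cells (47.8 against 43.3 and 55.4 CPM).

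The members varied among themselves in recognisable pairs. Over the 21 epithelial class-by-library sums, which share libraries and free RNA, Pearson's r of log2 (CPM + 10) was 0.75 for *Cldn3* with *Cldn7*, 0.76 for *Ocln* with each of them and 0.66 for *Cldn3* with *Cldn10*. It was -0.86 for *Cldn4* with *Cldn10* and -0.49 for *Cldn4* with its neighbour *Cldn3*. The genes most like each member among 7365 with at least 200 UMIs were *Cd82*, *Ceacam1* and *Me1* for *Cldn3* (r from 0.94 to 0.96), *Erich5* and *Ly6d* for *Cldn4* (0.93 to 0.94), *Krt18*, *Ehf* and *Plaat3* for *Cldn7* (0.90 to 0.91), and *Pgp*, *Mthfd2* and *Aqp5* for *Cldn10* (0.90 to 0.93). For *Ocln* they were *Stard5*, *Krt18* and *Ppp1r1b* (0.81 to 0.82), for *Tjp1* *Fam45a*, *March2* and *Uckl1* (0.80 to 0.82) and for *F11r* *Gm10076*, *Gm43974* and *Ubb* (0.78 to 0.85). Over 18 lineage-by-library sums, *Btnl9*, *Stmn2* and *Sox17* were most like *Cldn5* among 10264 genes (0.98 to 0.99).

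The split of all called genes into higher and lower moved with the scaling, so directions are relative to it. In acinar cells 64.4% of calls were higher, against 1.00% with total UMIs, 39.1% with UMIs outside tear-product and mitochondrial genes and 41.4% with DESeq2 size factors, with the median of all genes moved by -2.20, -0.39 and -0.36. Total UMIs changed the split from 50.8% to 96.8% in duct cells, 51.6% to 96.2% in MEC, 65.8% to 6.2% in Car6hi acinar cells, 60.4% to 76.8% in capillary, 61.6% to 41.0% in venous, 68.7% to 5.60% in epithelial and 66.7% to 91.0% in endothelial cells. DESeq2 size factors changed it from 78.9% to 68.3% in Ltf+ cells, to 63.6% in MEC and to 56.0% in epithelial cells. UMIs outside tear-product and mitochondrial genes changed it to 41.5% in venous cells and from 36.7% to 57.3% in arteriolar cells. With levels taken over all UMIs, the class of highest mean was Ltf+ for *Cldn3* and *Cldn7*, MEC for *Cldn10* and *Tjp1* and luminal-type duct for *F11r*, in place of Car6hi acinar cells for all 5, and it stayed the same for *Cldn4* and *Ocln*.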

How the data were processed

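Per the labels and the study's methods, the authors prepared 10x 3′ v3.1 libraries from dissociated LGs, and the processing notes name Cell Ranger 6.1.2 and mm10. The deposited matrices hold UMI counts per gene and barcode, with no normalization, as called barcodes and as all barcodes. The authors' later removal of free RNA and doublets is not in these counts.

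Cells were filtered, doublets were removed with the scrublet function of scanpy 1.11.5, and cells were clustered with Seurat 5.3.0. The features left out the members, the listed junction genes and most tear-product genes. Tear-product genes on the marker lists, among them *Lpo*, *Car6* and *Ltf*, stayed among the features. Clusters were named from marker lists, and the rules that left clusters unnamed were set after the clusters were seen. The members, lists and tests were chosen with earlier results of these data known. UMIs were summed per library and class and tested with edgeR 4.0.16 (quasi-likelihood, TMM, filterByExpr, class plus library, Benjamini-Hochberg over all genes tested, threshold 0.05). Neighbours in the order of levels were tested in the same fit. *Cldn5* in arteriolar cells was not tested. Genes named beyond the members are the 5 junction genes with the largest called change in each direction (those printed are among them) and the 3 genes with the highest Pearson's r to each member. A gene that met this rule is not reported here. The stress genes printed and the clusters described were picked after their values were seen.

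The library term pairs classes, since the classes of a library come from the same suspension. Deviations of classes from their means correlated within libraries (r from 0.126 to 0.695, median 0.362, 63 pairs). Across libraries the median was -0.311. Deviations from a mean over 3 libraries cancel out, so a negative value across libraries is partly built in and says nothing by itself about pairing. Each library pools animals, so p-values measure how far differences between classes varied over 3 pools, and not the spread between animals. Intervals and limits from counts of 0 (3 counts) cover counting error only. On simulated data, 46% of genes changed 4-fold and 23% of those changed 2-fold were recovered in Ltf+ cells (2211 genes tested), 80% and 33% in venous cells (2337), and 60% and 16% in endothelial cells (6133). Counts were drawn from a pooled profile with a fixed spread and no differences between libraries. Changed genes that failed the filter counted as not recovered, and the real epithelial fit tested 6311 genes. These shares therefore do not give the power of the tests reported. Alternatives covered scaling, tool, filters, library term, left-out libraries, clustering resolution, doublets and free RNA. Free RNA was subtracted from duct, MEC and non-epithelial sums only, and not from Ltf+ cells and the acinar classes.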

Additional observations from a re-analysis of the deposited data

Results flagged for a closer look

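Some member differences pointed one way in the female library and the other way in both male libraries, as differences of log2 (CPM + 10) between a class and the mean of the other epithelial classes. None of these was tested, since there is 1 female library. *Cldn7* in duct cells was at 0.432 in the female and at -0.0485 and -0.737 in the male libraries. In acinar cells *Cldn7* was at 0.668, -0.407 and -0.521. *Cldn10* was at -0.363, 0.277 and 0.275 in Ltf+ cells and at 0.571, -0.261 and -0.163 in MEC. *Tjp1* in Ltf+ cells was at -0.248, 0.232 and 0.394.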

How the results depend on the processing

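Of 28 member calls, 18 kept their direction and call in every one of the 17 alternatives that gave a value, and 10 did not. Subtraction of free RNA left Ltf+ and acinar-class sums as they were, so it could not test calls in those classes for free RNA. Limiting cells to more than 3000 UMIs and counting immunoglobulin-led clusters as acinar were chosen after seeing the data. With total UMIs, 4 calls turned: *Cldn3* (-0.83) and *Cldn10* (-0.46) in acinar cells, *F11r* in MEC (0.52) and *F11r* in epithelial cells (-0.73). The members called were then 6 in duct cells (3 as reported) and 6 in acinar cells (3), which had 5 with no filter on low counts. With more than 3000 UMIs, 2 were called in MEC (4), 1 in epithelial cells (4, with 1 member tested) and 0 in endothelial cells (4).

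In Tfrchi acinar cells (2 as reported), 1 was called with DESeq2 size factors, total UMIs, UMIs outside tear-product and mitochondrial genes, DESeq2, no filter, a mitochondrial share under 5% or more doublets removed, and 0 without the replicate block, with free RNA subtracted or with more than 3000 UMIs. Leaving out 1 library gave 1 to 2. Between the duct types (1 as reported), 0 were called with total UMIs, without the replicate block, at resolutions 0.6 and 1.4 or with more than 3000 UMIs, and 0 to 1 without 1 library. The replicate block is the library term: without it *Cldn10* in endothelial cells was lost as well (edgeR, adjusted p = 0.381), as was *F11r* in MEC (0.16). Over all UMIs 2 of 7 members kept their class of highest level, and without thinning 3 of 7 kept their class of highest share. Causes were not tested. Low counts limit *Ocln*, and *Cldn4* and *Cldn5* in the classes near 0.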

Other observations

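An endothelial cluster of 48 cells that could not be named, led by *Mfsd2a*, a lipid transporter of barrier endothelium, held 21 *Cldn5* UMIs, 435 ± 353 CPM over 3 libraries. The cluster of 665 cells led by *Ighm*, also left unnamed, held *Cldn10* at 926 ± 350 CPM and *Cldn3* at 215 ± 70 CPM.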
